A study of Homo sapiens with 9 samples.

Results

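The HOX genes were examined as 4 clusters across 2 human prostate cancer cell lines. Members were all genes of the deposited count table whose symbol was HOXA, HOXB, HOXC or HOXD followed by a number alone. This rule, with 1 symbol of the same form left out, gave 38 of the 28216 genes listed: 11 HOXA, 9 HOXB, 9 HOXC and 9 HOXD genes. The choice of members did not use their values. Poly(A)-enriched RNA was sequenced from 3 groups of 3 libraries each. PC3 cells, labelled wild type and untreated, were grown in F12K medium with 10% serum. LNCaP cells, also labelled wild type, first spent 24 h in RPMI medium without phenol red, in which the 10% serum was charcoal-stripped. They then received either 10 nM androgen or the vehicle, 0.01% ethanol, for 48 h. The androgen is dihydrotestosterone in the labels and a synthetic androgen in the main text of the study. Both lines came from metastases, and LNCaP was the FCG clone. The cell line and its medium cannot be told apart in any comparison of PC3 with LNCaP. No source says that the libraries of a group came from separate cultures, so the p-values measure only the spread between these samples.

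HOX genes encode homeodomain transcription factors that give cells of the embryo their position along the head-to-tail axis. Within a cluster the genes lie in the order in which they act. Low numbers sit at the 3′ end and pattern anterior regions, and high numbers sit at the 5′ end and pattern posterior regions, which include the urogenital tract from which the prostate forms. Genes of different clusters with the same number are paralogues. Many adult epithelial cells keep the HOX pattern of the place they came from. Polycomb proteins hold silent HOX genes in repressed chromatin, trithorax proteins keep active ones open, and the PBX, MEIS and PKNOX homeodomain proteins bind DNA together with HOX proteins.

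Library totals ranged from 17397706 to 25640325 counts. Relative to these totals, the 38 genes together had a level of 152 ± 6.58 CPM (counts scaled to a fixed library total) in PC3 cells (mean ± SD, n = 3), 70.7 ± 1.13 in androgen-treated and 123 ± 6.11 in vehicle-treated LNCaP cells. All other CPM are scaled with TMM factors. Marker genes went with the labels. Summed over the 6 PC3 markers, the LNCaP libraries held 0.0799 to 0.859% of the PC3 mean, with the highest value in replicate 1 of the androgen-treated cells. Summed over the 5 LNCaP markers, the PC3 libraries held 0.451 to 0.603% of the mean of the 6 LNCaP libraries, and KLK2, a secreted kallikrein of luminal prostate cells, had 0 counts in all 3. The 3 epithelial markers summed to 439 to 447 CPM in PC3 cells, 2754 to 3112 with androgen and 725 to 731 with vehicle. Leukocyte markers summed to at most 0.512 CPM in any library. Of the fibroblast markers, COL1A1 and COL3A1 were higher in PC3 than in androgen-treated cells, by 1.51 ± 0.13 and 5.20 ± 0.44 on the log2 scale, and COL3A1 also than in vehicle-treated cells. Of the endothelial markers, PECAM1 had 47 to 85 counts in PC3 libraries and at most 1 in LNCaP libraries. VWF was the reverse, with at most 2 counts in any PC3 library against 148 to 335 in LNCaP libraries, and was lower with androgen by -1.18 ± 0.10. The part of these differences in the HOX values was not tested.

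The 3 groups held different parts of the 4 clusters. A member was taken as detected in a group where every library had more than 3 counts. PC3 cells held 27 of the 38 genes, of which 11 of 11 were HOXA, 5 of 9 HOXB, 7 of 9 HOXC and 4 of 9 HOXD genes. Androgen-treated LNCaP cells held 15 genes and vehicle-treated LNCaP cells 19. HOXA gave 4 and 7 of these, HOXB gave 4 in each group, HOXC gave 7 and 8, and HOXD gave 0 in both. The 9 HOXD genes were therefore below detection in LNCaP cells at this depth, with at most 2 counts of any in any LNCaP library. This does not cover noncoding RNAs of the HOXD cluster, which are not members. One of them, HAGLR, had 4, 5 and 4 counts with androgen and 11, 15 and 11 with vehicle. HOXB1, HOXD9, HOXD10 and HOXD11 had 0 counts in all 9 libraries. A total of 0 over a group of 3 libraries allows up to 3 counts in that group, which is a limit for counting error only.

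**Figure D1:**
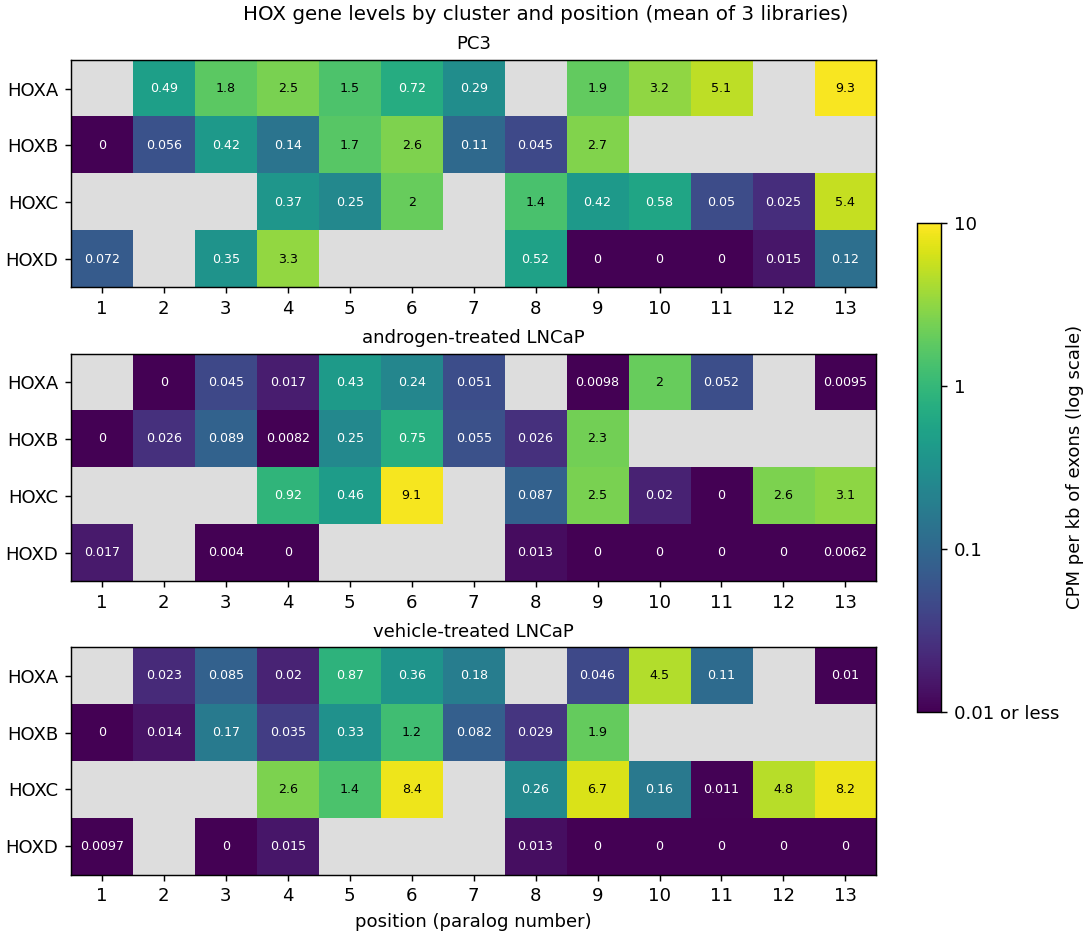
Mean level of each HOX gene (CPM per kb of exons, log colour scale) by cluster, in rows, and position number, in columns, for PC3, androgen-treated LNCaP and vehicle-treated LNCaP cells (3 libraries each). Grey marks positions with no member or no value shown. The HOXA row is filled in PC3 cells, the HOXD row only in part, and the HOXC row holds most of the signal in both LNCaP groups.

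Levels of different genes were compared per kb of exon length, taken over all annotated exons of a gene joined. Sums, shares and ranks here and below cover the members alone, without the symbol left out. On that scale, the summed HOX level was 49.9 ± 0.296 CPM per kb in PC3 cells (mean ± SD, n = 3). It was 25.7 ± 0.324 in androgen-treated and 43.1 ± 2.40 in vehicle-treated LNCaP cells. HOXA genes held 54.5% ± 1.17 of this level in PC3 cells, against 13.5% ± 1.37 and 15.7% ± 1.41 in the androgen-treated and vehicle-treated LNCaP cells. HOXC genes held 21.1% ± 2.21 in PC3 cells, against 72.8% ± 2.43 and 75.4% ± 1.45. The HOXB share was 15.6% ± 1.64 in PC3 cells, 13.6% ± 0.935 with androgen and 8.75% ± 0.144 with vehicle. The HOXD share was 8.80% ± 1.75 in PC3 cells and 0.152% ± 0.133 and 0.0887% ± 0.0232 in LNCaP cells. The order of clusters was thus HOXA, HOXC, HOXB and HOXD in PC3 cells. In both LNCaP groups HOXC was first and HOXD last. Split by position, genes numbered 9 to 13 held 57.7% of the level in PC3 cells, 48.6% with androgen and 61.4% with vehicle, so PC3 cells lay between the LNCaP groups.

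The leading genes also differed. In PC3 cells HOXA13, a posterior gene needed for limb and urogenital development, was highest at 9.28 ± 0.656 CPM per kb. Its lowest library lay above the highest library of every other member. HOXC13, a gene of hair and nail development, followed at 5.43 ± 0.712 and overlapped with HOXA11 at 5.06 ± 0.180, a gene of limb, kidney and uterus development. HOXD4, HOXA10, HOXB9, HOXB6, HOXA4 and HOXC6 came next, from 3.31 down to 2.03 CPM per kb, each overlapping with its neighbour in the order. In androgen-treated LNCaP cells HOXC6 led alone at 9.11 ± 0.523 CPM per kb. HOXC13, HOXC12, HOXC9, HOXB9 and HOXA10 followed from 3.12 down to 1.99 CPM per kb, with neighbours overlapping. In vehicle-treated LNCaP cells HOXC6 (8.45 ± 0.338) and HOXC13 (8.17 ± 0.432) overlapped. HOXC9 came next at 6.69 ± 0.500 CPM per kb, and HOXC12 (4.81 ± 0.497) and HOXA10 (4.55 ± 0.379) overlapped below it. The order below the first gene depends on the length used. Per kb of the longest transcript, HOXA13 still led in PC3 cells and HOXC6 in both LNCaP groups. HOXA10 then lay above HOXD4 in PC3 cells (4.61 and 3.31), HOXC9 with androgen (2.90 and 2.74) and HOXC12 with vehicle (6.63 and 4.81).

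PC3 cells were then compared with each LNCaP group, gene by gene, with edgeR's quasi-likelihood test. A gene was called where its Benjamini-Hochberg adjusted p was under 0.05 over all genes tested and its fold change was at least 2. The comparisons share libraries, so they are not independent of each other. Of 13 members above the filter of more than 3 CPM in at least 3 libraries, 7 were higher and 3 lower in PC3 than in androgen-treated LNCaP cells. Over all 12541 genes tested, 24.0% were called higher and 22.1% lower. Against vehicle-treated LNCaP cells, 7 of 14 members were higher and 4 lower, where 22.2% and 21.0% of 12686 genes were called. A gene could pass this filter through the libraries of 1 line alone, so these counts are not counts of all members. With no filter, 20 of 34 members were higher and 4 lower than with androgen (22.5% and 20.4% of all genes), and 18 and 5 of 34 higher and lower than with vehicle (21.1% and 20.0%). All genes above the filter had median log2 fold changes of 0.04 and 0.03.

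The HOXA genes at both ends of the cluster were far higher in PC3 cells. HOXA13 had 47.9, 49.9 and 43.4 CPM in the 3 PC3 libraries, from 1217, 1148 and 1099 counts, and exactly 1 count in each of the 6 LNCaP libraries. The groups lay far apart, with PC3 higher by 9.78 ± 0.19 on the log2 scale (SE) against androgen-treated cells (edgeR adjusted p = 1.28e-08) and by 9.68 ± 0.19 against vehicle-treated cells (edgeR adjusted p = 1.32e-08). As a ratio of pooled counts, this was 978-fold with androgen, with a 95% counting interval from 334 to 4744. HOXA11 had 331, 310 and 354 counts in PC3 cells, against 6, 1 and 2 counts with androgen and 5, 5 and 7 counts with vehicle. Its log2 fold changes were 6.50 ± 0.29 and 5.50 ± 0.16 (edgeR adjusted p = 3.28e-07 and 5.36e-08). With the reads of both strands added, the value against vehicle was 4.15, and the vehicle libraries held 35 reads on the opposite strand beside 17 on the strand of HOXA11.

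HOXA9, a gene of blood cell and posterior development, had 132, 114 and 184 counts in PC3 cells. In LNCaP cells it had 2, 0 and 0 counts with androgen and 4, 2 and 2 with vehicle. The pooled ratios were 182 (95% counting interval 50.1 to 1508) and 41.5 (20.9 to 96.9), with log2 fold changes of 7.28 ± 0.50 and 5.34 ± 0.32 (edgeR adjusted p = 3.05e-06 and 1.70e-06). HOXA4 had 125, 102 and 89 counts in PC3 cells, 2, 0 and 0 with androgen and 1, 0 and 1 with vehicle. Its log2 fold changes were 6.84 ± 0.50 and 6.74 ± 0.41 (edgeR adjusted p = 4.52e-06 and 1.92e-06). HOXA3, a gene of pharyngeal arch development, had 214, 182 and 163 counts in PC3 cells, 3, 7 and 2 with androgen and 5, 7 and 9 with vehicle. Its log2 fold changes were 5.27 ± 0.32 and 4.37 ± 0.23 (edgeR adjusted p = 1.47e-06 and 8.79e-07). The LNCaP counts of HOXA4, HOXA9 and HOXA11 with androgen were highest in replicate 1, the library with the most PC3 marker signal, at 0.859% of the PC3 level. Without that library the log2 fold changes of HOXA4, HOXA9 and HOXA11 were 9.62, 10.05 and 7.41. HOXA3 was at 5.94 without replicate 2. The part of that signal in these counts was not tested.

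Not every HOXA gene differed this way. HOXA10, a gene of uterus and male tract development, lay between the LNCaP groups, at 11.6, 12.7 and 10.9 CPM in PC3 cells, 7.39, 8.54 and 6.20 with androgen and 17.7, 17.7 and 15.2 with vehicle. PC3 cells were higher than the androgen-treated cells by 0.67 ± 0.15 and differed from the vehicle-treated cells by -0.50 ± 0.11 on the log2 scale (edgeR adjusted p = 0.00312 and 0.00332). Both differences were under 2-fold. HOXA5 (57, 58 and 71 counts in PC3 cells) was higher in PC3 than with androgen (19, 19 and 9 counts) by 1.75 ± 0.27 with no filter. It was not called against vehicle (24, 41 and 19 counts), at 0.80 ± 0.29 (edgeR adjusted p = 0.0320). HOXA2 (30, 30 and 24 counts) had 0 counts in every androgen-treated library, which makes it at least 23.7-fold higher in PC3. HOXA6 had 17 to 28 counts and HOXA7 16 to 19 in PC3 libraries, against at most 10 and 13 in LNCaP libraries. With no filter both were called higher in PC3 than with androgen, HOXA6 was also called against vehicle, and HOXA7 was not (0.71 ± 0.40, edgeR adjusted p = 0.156).

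Upstream sequences are shown for HOXA13, HOXA11 and HOXD4, the 2 highest HOXA genes and the highest HOXD gene of PC3 cells, all 3 near 0 in LNCaP cells. They are the 250 bases before the start of each gene in RefSeq on the build GRCh38.p14, at chr7:27200092-27200341 (minus strand), chr7:27185233-27185482 (minus strand) and chr2:176151300-176151549 (plus strand). All lie just upstream of the first exon in the annotation. Capitals mark the CCAAT box (CCAAT or ATTGG) in HOXA13 and HOXD4, and AGAACA, a hexamer found in androgen response elements, in HOXA11.
HOXA13: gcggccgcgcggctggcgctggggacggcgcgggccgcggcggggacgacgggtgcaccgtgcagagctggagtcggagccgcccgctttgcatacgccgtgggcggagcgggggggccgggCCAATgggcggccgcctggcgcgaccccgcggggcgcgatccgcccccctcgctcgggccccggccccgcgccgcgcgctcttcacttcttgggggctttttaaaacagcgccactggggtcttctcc
HOXA11: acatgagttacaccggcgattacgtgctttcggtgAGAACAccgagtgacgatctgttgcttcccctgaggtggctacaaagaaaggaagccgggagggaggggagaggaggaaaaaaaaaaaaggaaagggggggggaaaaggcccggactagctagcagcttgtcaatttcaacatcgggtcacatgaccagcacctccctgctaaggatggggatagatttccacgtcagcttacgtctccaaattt
HOXD4: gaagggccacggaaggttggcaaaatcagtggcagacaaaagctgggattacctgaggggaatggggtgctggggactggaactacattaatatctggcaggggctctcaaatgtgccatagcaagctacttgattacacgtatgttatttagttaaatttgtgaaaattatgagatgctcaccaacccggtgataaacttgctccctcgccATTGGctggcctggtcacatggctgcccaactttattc

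The CCAAT box began 128 bases before the HOXA13 start and 38 bases before the HOXD4 start, and the AGAACA match 215 bases before the HOXA11 start. The HOXA13 window had a GC content of 78.0% and 40 CpG sites, and the HOXD4 window 47.6% and 4. Of the 38 members, 20 had entries in the table, with 26 distinct windows. CCAAT or ATTGG was present in 17 of these 26 (65.4%) and in 32.0% of all 34943 windows of the same length. AGAACA or TGTTCT was present in 3 of 26 (11.5%) and in 12.4% of all windows. TATAAA or TTTATA, the TATA box, was present in 5 of 26 (19.2%) and in 10.8%, GGGCGG or CCGCCC, the GC box, in 13 of 26 and in 42.5%, and TGATNNAT or ATNNATCA, a site of PBX and HOX pairs, in 3 of 26 (11.5%) and in 6.49%. HOX windows had a median ratio of observed to expected CpG of 0.886, against 0.556 over all windows, at a like GC content (58.8% and 58.0%).

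The HOXD genes detected in PC3 cells were near 0 in LNCaP cells. HOXD4 had 86, 76 and 116 counts in PC3 cells, 0 in every androgen-treated library and 1, 0 and 0 with vehicle. It was at least 78.5-fold higher in PC3 than in the androgen-treated cells. Against vehicle-treated cells the pooled ratio was 215 (95% counting interval 38.3 to 8518), and the log2 fold change of 7.36 ± 0.48 (edgeR adjusted p = 2.78e-06) was 9.40 without vehicle replicate 1, the library that held the single count. HOXD3 had 31, 20 and 46 counts in PC3 cells against 1, 0 and 0 with androgen and 0 in all with vehicle. HOXD8 had 41, 22 and 38 counts in PC3 cells, 0, 2 and 0 with androgen and 0, 0 and 2 with vehicle, with a pooled ratio of 42.8 (95% counting interval 11.5 to 358) to the androgen-treated cells. HOXD13, the paralogue of HOXA13 in this cluster, was low even in PC3 cells, with 7, 6 and 9 counts, and had 1, 0 and 0 counts with androgen and 0 with vehicle. HOXD1 (4, 3 and 3 counts) and HOXD12 (2, 0 and 1 counts) stayed under the detection limit in PC3 cells.

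**Figure D2:**
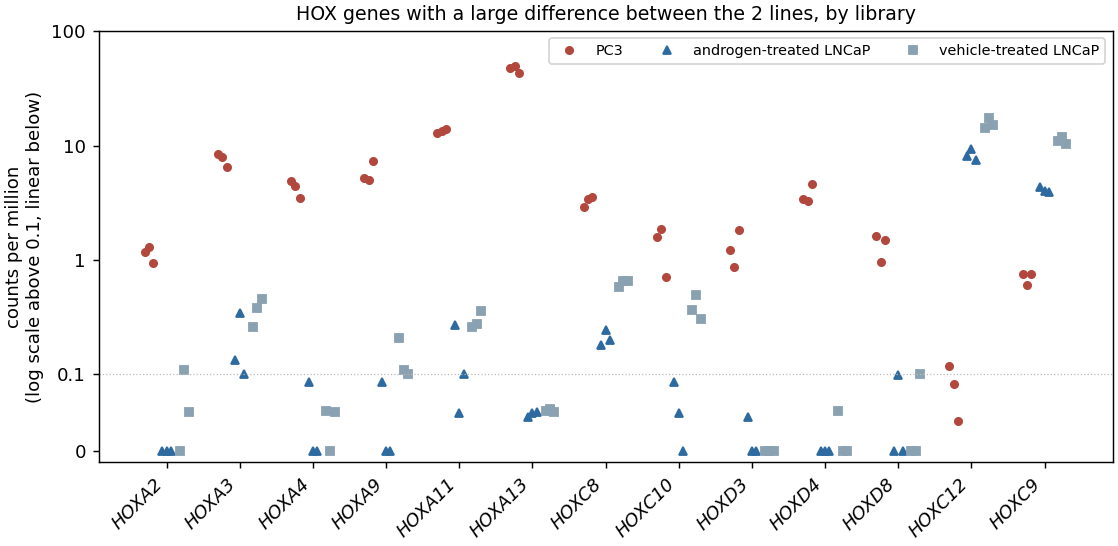
CPM of 13 HOX genes in each of the 3 libraries of PC3, androgen-treated LNCaP and vehicle-treated LNCaP cells (symmetric log axis, linear below 0.1 CPM). HOXA13 sits at 43.4 to 49.9 CPM in PC3 cells with 1 count in every LNCaP library, and HOXC12 shows the opposite order, with at most 3 counts in a PC3 library.

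The HOXC cluster was split between the lines. HOXC12, HOXC9, HOXC6 and HOXC4 were higher in LNCaP cells. HOXC12 had 3, 2 and 1 counts in the PC3 libraries, 182, 189 and 150 with androgen and 274, 319 and 300 with vehicle. The pooled ratio of LNCaP to PC3 was 103 (95% counting interval 46.8 to 281) with androgen and 193 (88.1 to 526) with vehicle. The log2 fold changes of PC3 over LNCaP were -6.58 ± 0.27 and -7.47 ± 0.24 (edgeR adjusted p = 2.13e-07 and 7.25e-08). HOXC9 had 19, 14 and 19 counts in PC3 cells, 98, 82 and 78 with androgen and 211, 219 and 204 with vehicle, and its log2 fold changes were -2.54 ± 0.17 and -3.95 ± 0.15 (edgeR adjusted p = 2.86e-06 and 1.58e-07). HOXC6 had 178, 179 and 158 counts in PC3 cells, 682, 615 and 666 with androgen and 583, 522 and 560 with vehicle. Every LNCaP library was above every PC3 library, by log2 fold changes of -2.16 ± 0.12 and -2.03 ± 0.11 (edgeR adjusted p = 7.90e-07 and 1.08e-06). HOXC4 had 25, 26 and 25 counts in PC3 cells, 56, 51 and 52 with androgen and 114, 139 and 149 with vehicle, and was lower in PC3 than in the vehicle-treated cells by -2.74 ± 0.16 on the log2 scale (edgeR adjusted p = 1.73e-06).

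HOXC8 and HOXC10 went the other way within the same cluster. HOXC8, which lies between HOXC9 and HOXC6, had 74, 78 and 90 counts in PC3 cells, 4, 5 and 4 with androgen and 11, 12 and 13 with vehicle. HOXC10, between HOXC11 and HOXC9, had 40, 43 and 18 counts in PC3 cells, 2, 1 and 0 with androgen and 7, 9 and 6 with vehicle. No group overlapped with another for either gene, and HOXC11 had 2 to 5 counts in PC3 cells and at most 1 in LNCaP cells. PC3 cells were higher for HOXC8 by 3.96 ± 0.27 and 2.40 ± 0.21, and for HOXC10 by 4.71 ± 0.68 and 1.85 ± 0.43, on the log2 scale in the fit with no filter. The pooled ratios were 15.8 (95% counting interval 9.05 to 30.0) and 5.20 (3.65 to 7.60) for HOXC8 and 28.5 (9.48 to 141) and 3.55 (2.22 to 5.91) for HOXC10. The LNCaP level was 5.45 to 7.51% of the PC3 mean with androgen and 17.5 to 20.1% with vehicle for HOXC8, and 0 to 6.47% with androgen and up to 35.7% with vehicle for HOXC10, beside a PC3 marker signal of at most 0.859% in these libraries. The part of that signal in these counts was not tested.

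HOXC13, at the 5′ end of the cluster, was expressed in both lines. It had 13.4, 14.1 and 10.9 CPM in PC3 cells, 7.75, 6.47 and 7.86 with androgen and 18.3, 20.4 and 19.1 with vehicle. PC3 cells lay between the LNCaP groups, at log2 fold changes of 0.80 ± 0.15 and -0.56 ± 0.12 (edgeR adjusted p = 0.00124 and 0.00292), both under 2-fold. Exons shared on the same strand limit part of this cluster. HOXC4 and HOXC6 share 17.5% and 16.1% of their exon lengths with neighbouring HOXC genes, and HOXC9 shares 4.38%. Reads from such a stretch cannot be given to either gene.

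Among HOXB genes above the filter, HOXB6 was called and HOXB9 was not. HOXB6 had 6.14, 6.57 and 7.90 CPM in PC3 cells, 1.75, 2.27 and 1.87 with androgen and 2.57, 3.73 and 3.00 with vehicle. It was higher in PC3 cells by 1.81 ± 0.16 and 1.17 ± 0.17 on the log2 scale (edgeR adjusted p = 1.71e-05 and 3.16e-04). HOXB9 had 8.26, 5.22 and 7.59 CPM in PC3 cells, 6.31, 6.22 and 5.19 with androgen and 5.03, 5.21 and 4.72 with vehicle. The PC3 and androgen-treated libraries overlapped, with a log2 fold change of 0.25 ± 0.19 (edgeR adjusted p = 0.247), and the difference from vehicle was 0.52 ± 0.18 (edgeR adjusted p = 0.0274), under 2-fold. HOXB5 had 67, 74 and 89 counts in PC3 cells, against 9 to 10 counts with androgen and 8 to 14 with vehicle. HOXB6 shares 16.6% of its exon length with HOXB3, and HOXB3 shares 6.42% with its neighbours. HOXB3 had 85, 71 and 74 counts in PC3 cells, 12, 18 and 11 with androgen and 30, 28 and 13 with vehicle. With no filter, PC3 cells were higher for HOXB5 by 2.75 ± 0.24 and 2.37 ± 0.25 and for HOXB3 by 2.25 ± 0.24 and 1.35 ± 0.28. HOXB2, HOXB4, HOXB7 and HOXB8 had at most 8 counts in any library.

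Within LNCaP cells, no member was called higher with androgen, and 4 of the 7 members above the filter fell: HOXA10, HOXC4, HOXC9 and HOXC13. Over all 11697 genes tested, 6.54% were called higher and 7.49% lower. At an unadjusted p under 0.05, with no fold limit, 5 of the 7 were lower and 0 higher. Most of all genes tested passed an adjusted p under 0.05 with no fold limit, so this count does not set the members apart. With the fold limit, the DESeq2 test called the same numbers as edgeR (0 higher and 4 lower). With no filter, 8 of 33 members fell and 0 rose, where 7.73% of genes were called lower and 6.66% higher. Counted by overlap alone, 11 of the 19 members with more than 3 counts in every library of a group were lower in all 3 androgen-treated libraries than in any vehicle-treated library, and 0 were higher. Among the 15019 genes so measured, 37.8% were lower and 34.5% higher in this sense. All genes above the filter had a median of -0.01 on the log2 scale. Bulk RNA cannot separate fewer cells that express a gene from less RNA per cell.

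HOXC13 had 173, 131 and 156 counts with androgen (7.75, 6.47 and 7.86 CPM) and 350, 371 and 376 with vehicle (18.3, 20.4 and 19.1 CPM). The groups did not overlap, and it fell by 1.38 ± 0.10 on the log2 scale (edgeR adjusted p = 2.53e-08). HOXC9 had 4.39, 4.05 and 3.93 CPM with androgen against 11.1, 12.0 and 10.4 with vehicle, and fell by 1.43 ± 0.11 (edgeR adjusted p = 9.91e-08). HOXC4 had 2.51, 2.52 and 2.62 CPM against 5.98, 7.63 and 7.57, and fell by 1.47 ± 0.14 (edgeR adjusted p = 8.67e-07). HOXA10 had 7.39, 8.54 and 6.20 CPM against 17.7, 17.7 and 15.2, and fell by 1.19 ± 0.12 (edgeR adjusted p = 7.72e-07). The pooled ratios of vehicle to androgen of these 4 genes lay between 2.28 and 2.77.

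HOXC5, HOXC8, HOXC10 and HOXA7 also fell in the fit with no filter. HOXC5 had 15, 18 and 13 counts with androgen and 47, 37 and 45 with vehicle, and fell by 1.59 ± 0.25 on the log2 scale (edgeR adjusted p = 5.44e-06). HOXC8 had 4, 5 and 4 counts against 11, 12 and 13, and HOXC10 had 2, 1 and 0 against 7, 9 and 6. Both fell, with log2 fold changes of -1.55 ± 0.46 and -2.84 ± 0.75 (edgeR adjusted p = 0.00601 and 0.00252). HOXA7 had 5, 3 and 0 counts against 8, 13 and 4, with overlapping groups, and fell by 1.72 ± 0.67 (edgeR adjusted p = 0.0362). HOXC12 had 8.15, 9.33 and 7.56 CPM with androgen against 14.4, 17.5 and 15.2 with vehicle, a log2 fold change of -0.91 ± 0.11 (edgeR adjusted p = 4.88e-06) that stayed under 2-fold.

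Other members were not called. HOXC6, which led alone with androgen, had 30.5, 30.4 and 33.6 CPM with androgen against 30.6, 28.6 and 28.4 with vehicle, with a log2 fold change of 0.11 ± 0.06 (edgeR adjusted p = 0.130). It overlapped between groups while HOXC4, HOXC5, HOXC8, HOXC9, HOXC10, HOXC12 and HOXC13 did not. Whether HOXC6 differed from its neighbours in response was not tested. HOXB9 had 6.31, 6.22 and 5.19 CPM against 5.03, 5.21 and 4.72, with a log2 fold change of 0.25 ± 0.13 (edgeR adjusted p = 0.0910). HOXB6 differed by -0.64 ± 0.19, HOXB3 by -0.90 ± 0.35 and HOXA5 by -0.95 ± 0.33, with edgeR adjusted p = 0.00733, 0.0339 and 0.0192, all under 2-fold.

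**Figure D3:**
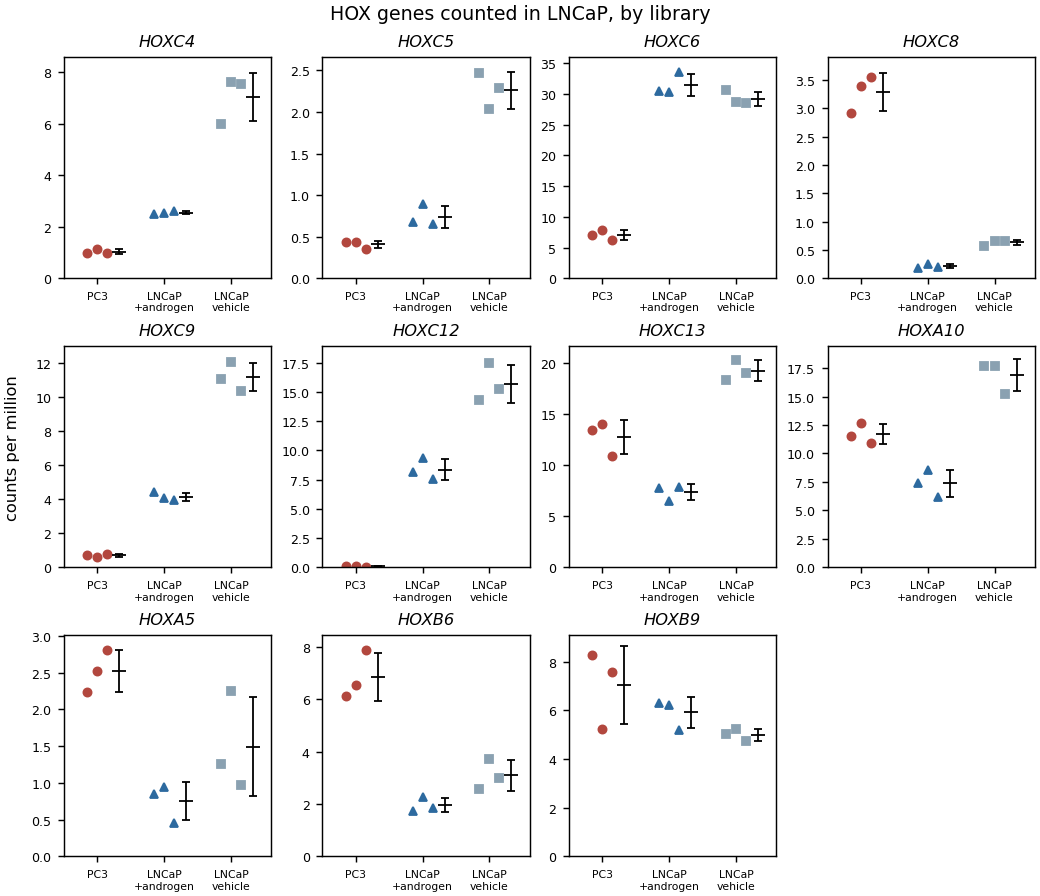
CPM of 11 HOX genes in each library of PC3, androgen-treated LNCaP and vehicle-treated LNCaP cells, with the mean and SD of 3 libraries. HOXC4, HOXC9, HOXC13 and HOXA10 are lower with androgen in all 3 libraries, and HOXC6 overlaps between the LNCaP groups.

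HOXA10 and HOXC4, both called lower with androgen, had upstream windows in the promoter table, and these are shown because they belong to the genes that fell. HOXC4 and HOXC5 share 1 window, at chr12:54016638-54016887 (plus strand), upstream of the first HOXC4 exon and inside the annotated span of HOXC6. HOXA10 has 2, at chr7:27179862-27180111 and chr7:27174321-27174570 (minus strand), for an upstream and a downstream start, both inside the annotated span of the gene. Capitals mark the CCAAT box (CCAAT or ATTGG) and the TATA box (TATAAA or TTTATA).
HOXC4 and HOXC5: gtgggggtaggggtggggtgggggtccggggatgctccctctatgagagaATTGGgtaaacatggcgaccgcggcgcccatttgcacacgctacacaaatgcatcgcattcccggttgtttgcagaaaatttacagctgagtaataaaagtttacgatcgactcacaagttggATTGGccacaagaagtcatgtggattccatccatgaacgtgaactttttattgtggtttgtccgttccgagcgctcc
HOXA10 upstream start: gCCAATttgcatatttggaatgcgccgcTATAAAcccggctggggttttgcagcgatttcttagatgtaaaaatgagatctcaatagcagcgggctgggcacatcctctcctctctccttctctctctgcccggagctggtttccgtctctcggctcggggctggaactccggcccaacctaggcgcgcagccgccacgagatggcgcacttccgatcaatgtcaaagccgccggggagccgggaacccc
HOXA10 downstream start: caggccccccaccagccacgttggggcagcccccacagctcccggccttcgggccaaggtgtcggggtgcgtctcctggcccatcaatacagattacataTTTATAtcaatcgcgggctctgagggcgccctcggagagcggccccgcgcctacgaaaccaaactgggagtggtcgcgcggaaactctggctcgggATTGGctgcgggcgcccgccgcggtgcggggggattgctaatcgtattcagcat

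The HOXC4 window held ATTGG at 200 and 77 bases before the start. The upstream HOXA10 start had CCAAT at 249 and TATAAA at 222 bases, and the downstream start had TTTATA at 150 and ATTGG at 54 bases. The hexamer AGAACA or its reverse complement was in neither gene's windows, which says only that these letters are not in these bases. Of the 3415 stretches of 74 nt in HOXA10, the read length, 57 (1.67%) occurred elsewhere in the genome. The count table also lists a HOXA10-HOXA9 readthrough gene, with 7, 2 and 6 counts in PC3 cells and 0 in all LNCaP libraries, and reads that fit both entries cannot be given to either.

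Noncoding RNAs of the clusters differed between the lines as well. The list held 24 names, of which 22 were in the table. Of 5 tested against androgen-treated cells, 5 were higher in PC3 (24.0% of all genes), and of 6 tested against vehicle-treated cells, 5 were higher and 1 lower (22.2% and 21.0%). HOTTIP, a noncoding RNA known to act on the 5′ HOXA genes, starts 1516 nt from HOXA13 on the other strand. It had 178, 169 and 156 counts in PC3 cells, 0 in every androgen-treated library and 0, 0 and 1 with vehicle, which makes it at least 142-fold higher in PC3 than with androgen. HOXA10-AS had 217, 187 and 216 counts in PC3 cells, 1, 2 and 0 with androgen and 0, 0 and 2 with vehicle (log2 fold changes of 7.30 ± 0.33 and 7.71 ± 0.39). It lies on the other strand, within the annotated span of HOXA9, which was higher in PC3 by 7.28 ± 0.50 and 5.34 ± 0.32. It also overlaps the span of HOXA10, which differed by less than 2-fold. HOXA11-AS, which starts 725 nt from HOXA11, had 236, 234 and 206 counts in PC3 cells, 3, 6 and 5 with androgen and 16, 20 and 22 with vehicle (5.33 ± 0.25 and 3.19 ± 0.18 on the log2 scale, edgeR adjusted p = 3.67e-07 and 1.10e-06).

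HOTAIRM1, in the HOXA cluster, had 273, 212 and 290 counts in PC3 cells, 72, 74 and 63 with androgen and 75, 78 and 94 with vehicle. It was higher in PC3 cells by 1.65 ± 0.13 and 1.30 ± 0.13 on the log2 scale. HOXD-AS2 had 118, 90 and 134 counts in PC3 cells, 1, 0 and 0 with androgen and 0 with vehicle, and was at least 88.1-fold higher than with vehicle. HOXC13-AS, which starts 812 nt from HOXC13, had 61, 46 and 58 counts in PC3 cells, 30, 34 and 36 with androgen and 94, 94 and 94 with vehicle. It was lower in PC3 than in vehicle-treated cells by -1.12 ± 0.13 (edgeR adjusted p = 7.59e-05) and fell with androgen by 1.62 ± 0.16 (edgeR adjusted p = 7.74e-07), as HOXC13 did. HOTAIRM1 differed with androgen by -0.37 ± 0.14 (edgeR adjusted p = 0.0306), under 2-fold, so 1 of the 2 noncoding RNAs tested was called (7.49% of all genes were called lower). HOTAIR, in the HOXC cluster, was low throughout, with 12, 11 and 7 counts in PC3 cells and at most 2 in any LNCaP library.

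**Figure D4:**
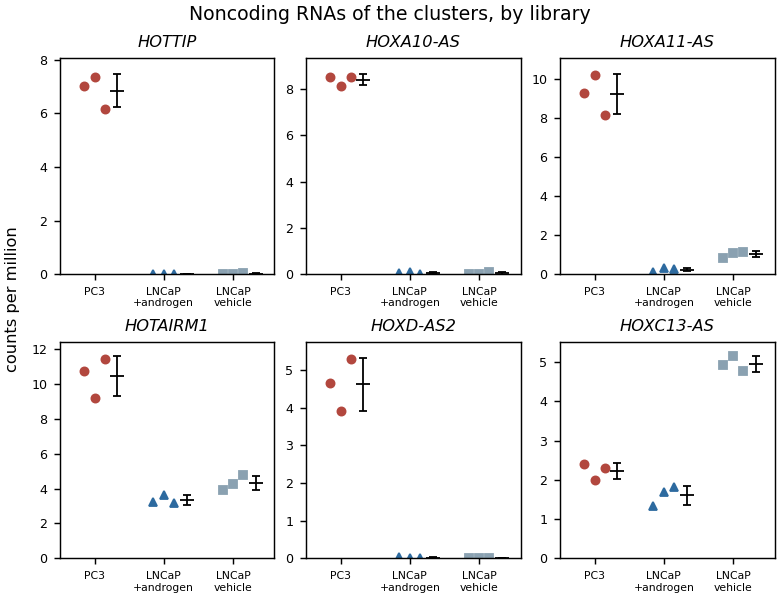
CPM of HOTTIP, HOXA10-AS, HOXA11-AS, HOTAIRM1, HOXD-AS2 and HOXC13-AS in each library of the 3 groups. The first 5 are highest in PC3 cells, and HOXC13-AS is highest in vehicle-treated LNCaP cells.

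Among the 9 genes of the DNA-binding partners of HOX proteins, MEIS2 and PKNOX2 were each present in 1 line. MEIS2 had 396, 402 and 390 counts in PC3 cells, 1, 3 and 2 with androgen and 1, 0 and 0 with vehicle, a pooled ratio of 168 (95% counting interval 76.8 to 458) over the androgen-treated cells. PKNOX2 was the reverse, with 0 counts in every PC3 library, 260, 240 and 181 with androgen and 315, 360 and 369 with vehicle, and was at least 268-fold and 450-fold lower in PC3 cells. MEIS1 had 109, 91 and 89 counts in PC3 cells, 212, 218 and 192 with androgen and 72, 70 and 87 with vehicle, and rose with androgen by 1.31 ± 0.12 (edgeR adjusted p = 3.24e-07). Of the 7 tested in each comparison of the lines, 1 was called higher in PC3, MEIS2 in both cases, and 2 were called lower. PKNOX2 was called lower in PC3 in both, and MEIS1 was lower in PC3 than in androgen-treated cells by -1.34 ± 0.13 (edgeR adjusted p = 2.55e-05). Over all genes tested, 24.0% were called higher and 22.1% lower than with androgen, and 22.2% and 21.0% than with vehicle.

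**Figure D5:**
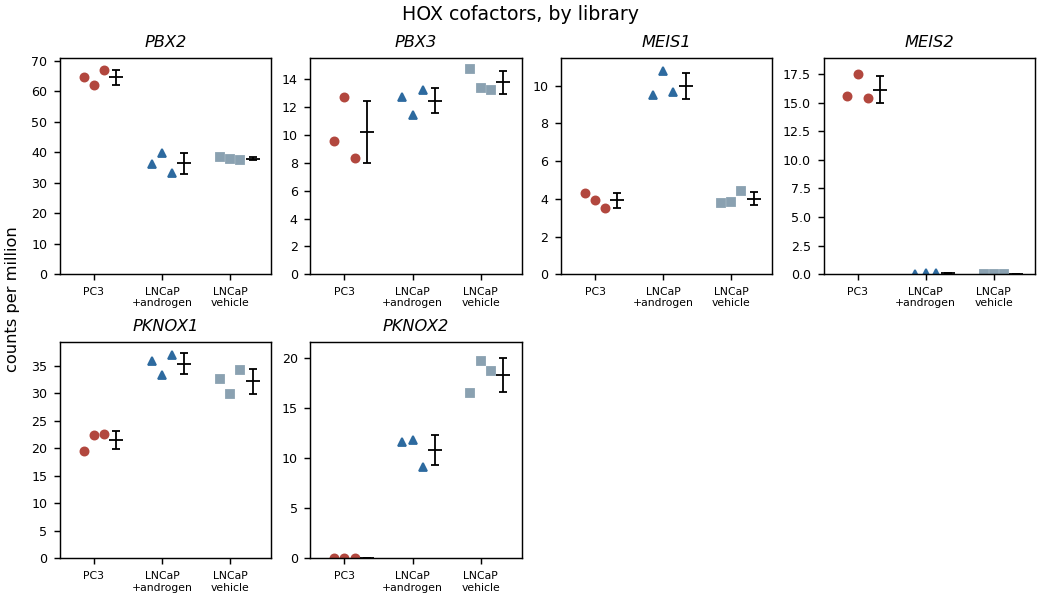
CPM of 6 HOX partner genes (PBX2, PBX3, MEIS1, MEIS2, PKNOX1 and PKNOX2) in each library of the 3 groups. MEIS2 is present in PC3 cells and near 0 in LNCaP cells, PKNOX2 shows the reverse, and MEIS1 is highest with androgen.

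The chromatin regulators of HOX genes were measured as lists. Of 28 Polycomb genes tested in each comparison, 5 were higher and 4 lower in PC3 than in androgen-treated cells, and 5 and 7 against vehicle-treated cells. These counts lay near or below the background of 24.0% and 22.1% of all genes with androgen and of 22.2% and 21.0% with vehicle, except for the 7 lower genes, which lay above it. The medians of the list were -0.17 and -0.34 on the log2 scale, against 0.04 and 0.03 over all genes. PHF19, a subunit that guides Polycomb repressive complex 2, was higher in PC3 cells by 4.08 ± 0.19 and 3.70 ± 0.18, and PHC2, a subunit of Polycomb repressive complex 1, by 2.54 ± 0.09 and 2.20 ± 0.09. CBX2, another subunit of Polycomb repressive complex 1, was lower in PC3 than in vehicle-treated cells by -1.90 ± 0.12. With androgen 2 of 28 fell and 0 rose in edgeR and DESeq2 (4 were higher and 18 lower at an unadjusted p under 0.05): EZH2, the methyltransferase of Polycomb repressive complex 2, with 681, 753 and 700 counts against 1725, 1478 and 1695 (log2 fold change -1.32 ± 0.07, edgeR adjusted p = 1.13e-09), and CBX2, which reads its mark (-1.25 ± 0.07, edgeR adjusted p = 6.11e-09). The median of the list with androgen was -0.38, and 7.49% of all genes were called lower, a share close to that of the list. The counts at an unadjusted p have no fold limit, and most of all genes tested passed an adjusted p without that limit.

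Of 17 trithorax genes, 2 were higher and 4 lower in PC3 than in androgen-treated cells, and 3 and 3 against vehicle-treated cells. With 24.0% and 22.1% of all genes called with androgen and 22.2% and 21.0% with vehicle, these counts were near or below the background. KDM6A, a demethylase that removes the Polycomb mark, was lower in PC3 cells by -2.54 ± 0.07 against androgen-treated cells (edgeR adjusted p = 5.13e-08), and KMT2A, a histone methyltransferase that maintains HOX expression, was higher by 1.51 ± 0.09. With androgen, edgeR and DESeq2 called 0 of 17 in either direction, with a list median of -0.25. At an unadjusted p under 0.05, with no fold limit, 1 was higher and 12 lower. Most of all genes tested in that comparison passed an adjusted p without a fold limit. Of 8 upstream and ParaHox factors, CTCF and RAD21 were above the filter, and RAD21, a cohesin subunit, was higher in PC3 than in androgen-treated cells by 1.24 ± 0.14. It was not called against vehicle (0.46 ± 0.13), and neither gene was called with androgen. Of 9 flanking genes, 6 were tested and 1 was called in each comparison of the lines, lower in PC3. Over all genes, 22.1% were called lower in PC3 than with androgen and 21.0% than with vehicle. EVX1, next to HOXA13, had 25, 9 and 24 counts in PC3 cells, 0 in every androgen-treated library and 2, 3 and 1 with vehicle. EVX2, next to HOXD13, had 0 counts in all 9 libraries. CBX5, which lies beside the HOXC cluster and encodes a heterochromatin protein, was lower in PC3 cells by -1.34 ± 0.09 and -2.26 ± 0.09.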

How the data were processed

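RNA-seq of 9 libraries (3 groups of 3) was analysed from the count table that the authors deposited. Per the labels, the authors trimmed reads with cutadapt 4.1, aligned them to GRCh38 with STAR 2.7.7a and removed duplicates with UMI-tools 1.1.2, and the deposited counts are whole reads per gene, not normalised. The table equals the forward-strand column of the deposited STAR files at all 253944 values. There, 20.3 to 25.4% of reads were counted to no gene and were left out. These were unmapped, multimapping, outside genes of that strand, or ambiguous between genes. The gene annotation is not given in the sources used here. Reads were 74 nt.

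Counts were tested with edgeR 4.0.16 (quasi-likelihood, TMM factors, R 4.3.3) on the 6 libraries of each comparison, for genes over 3 CPM in at least 3 libraries, with Benjamini-Hochberg adjustment over all genes. The study's batch term was left out because no source names the batches. CPM in the text use TMM factors. Exon lengths and positions are from GENCODE release 44, promoters from RefSeq (GRCh38.p14). Ratios of pooled counts have exact 95% intervals, which cover counting error only, and a ratio against a total of 0 uses a floor of 3 counts over the group. Standard errors were taken from the log2 fold change and the F statistic. On simulated counts, 193 of 200 changed genes were recovered with 4 false calls among 12541 genes for PC3 against androgen-treated LNCaP. The numbers were 193 with 1 among 12686 for PC3 against vehicle-treated LNCaP, and 197 with 0 among 11697 for androgen against vehicle. Changes were planted equally up and down in genes above the filter, with all other genes unchanged. The simulation therefore does not cover genes nearly absent from a group, or as many changes as between the lines.

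Values per library are given for members over 3 CPM in at least 3 libraries, and for those over 10 counts in every library of a line and at most 3 in the other. From each further list at most 4 called genes with the largest change were named, with every noncoding RNA above the filter. HOXA5, HOXA7, HOXB3, HOXB5, HOXC5, HOXC8, HOXC10, HOXD1, HOXD12, HOXD13, HOTAIR, EVX1, EVX2 and CTCF, and the markers COL1A1, COL3A1, PECAM1 and VWF, were named after their values were seen. HAGLR was also named after its values were seen. Members and lists were chosen with earlier results of these data known. Some genes are not reported here. Replicate numbers paired the LNCaP libraries: deviations of same-numbered androgen and vehicle libraries correlated at 0.176, 0.196 and 0.171 over 12901 genes. Alternatives changed scaling, tool, test, replicate block, filters, threshold, strand, samples in the fit and libraries (DESeq2 1.42.0).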

Additional observations from a re-analysis of the deposited data

Results flagged for a closer look

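Reads on the strand opposite to a HOX gene, which the comparisons do not use, were a larger share in PC3 cells than in LNCaP cells. They made up 8.20% ± 1.72 of the HOX reads of both strands in PC3 cells (SD, n = 3, 259 to 419 reads), against 1.35% ± 0.0713 with androgen and 1.99% ± 0.216 with vehicle, and 2.33 to 3.06% over all genes. In PC3 cells HOXA10 held 146, 132 and 151 such reads beside 862 sense reads over the 3 libraries, HOXA11 61, 53 and 79, and HOXD8 42, 33 and 109 beside 101 sense reads. HOXA10-AS, HOXA11-AS and HOXD-AS2 lie on these strands, and HOXD8 was highest in replicate 3.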

How the results depend on the processing

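The counts of HOX genes called were 10 and 11 for PC3 against androgen-treated and vehicle-treated LNCaP and 4 for androgen against vehicle. With no filter on low counts they were 24, 23 and 8, and all genes called were 9147, 8713 and 2941. With at least 10 counts in every library the comparisons of the lines called 5 and 6, because genes near 0 in 1 line are not tested. With adjusted p alone, all genes called were 10530, 10577 and 8763. With the replicate block the HOX counts stayed at 10, 11 and 4, with 5756, 5495 and 1638 genes called in all, and the pairing changed no other call. DESeq2 size factors, the DESeq2 test and the likelihood ratio test gave the same HOX counts. Leaving out each library left 10, 11 and 4 HOX genes called, with 5717 to 5830, 5415 to 5616 and 1601 to 1686 genes in all. No direction reversed. Of 496 values of single genes under an alternative, 490 kept their call and 6 passed the threshold once the fold limit was dropped: HOXA10 and HOXC13 in both PC3 comparisons, HOXB9 against vehicle, and HOXC12 with androgen. With both strands added, the HOXA share of the level in PC3 was 53.0% and the HOXD share 10.7%. Detection depends on depth: with more than 10 counts in every library, 24, 11 and 13 members were detected in PC3, androgen-treated and vehicle-treated cells.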
